A study of Mus musculus with 5 samples.

Results

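Lyz2, Lcp1, Lilrb4a and Cd68 are 4 genes known from macrophages and other myeloid cells. They were chosen by name and because of earlier readings of these same arrays, so their ratios to embryo RNA are given as a description, with no test. They are 4 of 8452 named genes that had a value on all 5 arrays, and they were read by 6 probes. Lyz2 had 3 probes, while Lcp1, Lilrb4a and Cd68 had 1 probe each.

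The cells were macrophages grown from C3H/HeJ bone marrow in culture with human colony-stimulating factor 1 (CSF-1). They were left unexposed (0 h) or were exposed to 10 µg per ml lipopolysaccharide (LPS) of S. minnesota for 0.5, 2, 7 or 21 h. C3H/HeJ mice carry a mutation in Tlr4, the LPS receptor, that leaves them hyporesponsive to LPS, and every time point shares it, the 0 h cells included. Each time had 1 cDNA array with 2 colours, on which the macrophage RNA was set against RNA of whole C57BL6/J embryos of 17.5 days, so there were 5 arrays, no replicates and no test of any difference. In every ratio to embryo, cell type, strain and culture cannot be told apart, and the labels give neither the age nor the number of mice behind each array.

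Macrophages are phagocytes that take up and digest particles in lysosomes. Lyz2 encodes lysozyme M, a secreted enzyme that cleaves bacterial cell walls and is made by macrophages and neutrophils. Lcp1 encodes L-plastin, which bundles actin filaments in leukocytes. Lilrb4a encodes an inhibitory receptor of the immunoglobulin superfamily, formerly gp49B, which signals through phosphatases recruited to its cytoplasmic tail. Cd68 encodes macrosialin, a heavily glycosylated protein of late endosomes and lysosomes that is widely used as a macrophage marker.

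A near relative could add to the signal of some probes. Lyz1, the intestinal lysozyme gene next to Lyz2, and Lilr4b, the neighbour of Lilrb4a formerly called gp49A, have no probe of their own symbol among the probes named here, so the Lyz2 and Lilrb4a values are uncertain as to which copy they read. No probe or transcript sequences were at hand, so this was not checked. The bases just upstream of the annotated starts are shown for Lyz2 and Lyz1 to let these upstream windows be compared. Lcp1 and Cd68 are shown because the same window holds different motifs there. Bases upstream of a start are not part of the transcript, so they do not show which copy a probe reads. The sequences are from RefSeq, build GRCm38.p6, and each holds the 150 bases before a start site, read along the gene's strand. Promoter sequence was matched for 3 of the 4 genes, and Lilrb4a was not among them.
Lyz2, chr10:117282273-117282422, minus strand: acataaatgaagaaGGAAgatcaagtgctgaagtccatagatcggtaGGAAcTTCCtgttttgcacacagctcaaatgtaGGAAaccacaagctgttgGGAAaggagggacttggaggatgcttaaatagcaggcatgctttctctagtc
Lyz1, chr10:117292869-117293018, minus strand: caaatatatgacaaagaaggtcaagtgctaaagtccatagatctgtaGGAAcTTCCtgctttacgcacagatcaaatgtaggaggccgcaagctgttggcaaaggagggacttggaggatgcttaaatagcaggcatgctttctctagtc
Lcp1, upstream start, chr14:75130973-75131122, plus strand: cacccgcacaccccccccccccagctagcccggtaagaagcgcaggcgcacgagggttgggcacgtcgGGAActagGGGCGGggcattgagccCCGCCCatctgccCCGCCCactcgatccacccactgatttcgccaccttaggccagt
Lcp1, downstream start, chr14:75136275-75136424, plus strand: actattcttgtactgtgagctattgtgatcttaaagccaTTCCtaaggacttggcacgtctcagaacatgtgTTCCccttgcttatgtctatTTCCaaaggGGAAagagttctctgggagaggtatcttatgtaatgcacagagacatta
Cd68, chr11:69666171-69666320, minus strand: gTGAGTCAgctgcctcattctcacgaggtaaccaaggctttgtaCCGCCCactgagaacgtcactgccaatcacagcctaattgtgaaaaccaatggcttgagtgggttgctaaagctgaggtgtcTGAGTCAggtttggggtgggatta

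Capitals mark 3 motifs searched on both strands: GGAA, the core of ETS factor sites such as those of PU.1, TGANTCA, the AP-1 site, and GGGCGG, the GC box. Of the 150 bases, 129 (86%) were identical between Lyz2 and Lyz1 when aligned without gaps from the start site, and 92 of the last 100 were. GGAA was found 5 times in the Lyz2 window, 2 times in Lyz1, 1 time at the upstream Lcp1 start, 4 times at the downstream Lcp1 start and 0 times in Cd68. The upstream Lcp1 window held 3 GC boxes, and the Cd68 window held 2 AP-1 motifs and 1 GC box. Among the same 150 bases of 32851 annotated starts, 80.8% held GGAA, 28.6% held GGGCGG and 4.24% held TGANTCA, so a GGAA match is common. Over 250 bases, where 93.4% of windows held GGAA, Cd68 held 3 such matches. The longer PU.1 box GAGGAA, held by 23.3% of 250-base windows, was found 1 time in that of Cd68 and in none of the other 4. These matches describe letters and were not set against binding.

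The values are the deposited log ratios, with each array centred on its median over the 8452 genes. They are read as base 10, although the base is not stated in the sources used here. The sources also leave the centring done by the authors unstated, together with the channel on top of the ratio. Macrophage over embryo is taken as the likely direction, because 14 measured genes of macrophage identity had medians of 0.27 to 0.56 across the 5 arrays. The median of 7 fibroblast genes lay between -0.80 and -0.55, and that of 7 erythroid genes between -0.64 and -0.34. A ratio says how far a gene stood from embryo RNA, not how abundant its transcript was, since no spot intensities were used. In such bulk RNA a difference in the number of cells of a type and a difference in RNA per cell cannot be told apart. The 0.5 h array stood apart: its Pearson correlation with the 0 h array across probes was 0.48, against 0.75 to 0.85 for the 2, 7 and 21 h arrays. Means are therefore given over the 0, 2, 7 and 21 h arrays, and the 0.5 h values stand separately.

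Lilrb4a, the inhibitory receptor gene, had the highest mean ratio of all 8452 genes in the likely direction, which would be the lowest if the ratio ran the other way. On the 0, 0.5, 2, 7 and 21 h arrays its log ratios were 1.496, 1.58, 1.82, 1.59 and 1.51. It ranked 1st of all genes on the 0 h and 21 h arrays, 10th at 7 h, 11th at 2 h and 171st at 0.5 h. Its mean over the 0, 2, 7 and 21 h arrays was 1.61 ± 0.15 (SD over these 4 arrays, which are different times and not replicates). Read as base 10, its macrophage-to-embryo ratio was 40.3 times that of the median gene, and read as base 2 it was 3.04 times. With the direction turned, the base 10 value would be 0.0248 times.

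Lcp1, the L-plastin gene, had log ratios of 1.20, 1.39, 1.45, 1.15 and 1.37 in the same order of times. These put it between the 4th and the 41st place on the 0, 2, 7 and 21 h arrays and in 231st place at 0.5 h. The mean over the 4 arrays was 1.29 ± 0.14, the 6th highest of all genes. Read as base 10, all 5 values stood far above the 2-fold line of 0.30. Read as base 2, the Lcp1 ratio was only 2.22 (7 h) to 2.73 (2 h) times that of the median gene.

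Lyz2, the lysozyme gene, averaged over its 3 probes 1.13 ± 0.25 in unexposed cells and, from 0.5 to 21 h, 0.64 ± 0.70, 1.22 ± 0.30, 1.31 ± 0.28 and 1.20 ± 0.23 (SD between the 3 probes). It ranked between 6th and 46th on the 0, 2, 7 and 21 h arrays and 902nd at 0.5 h. The mean over the 4 arrays was 1.22 ± 0.08, the 10th highest. The 4 values lay close together and the 0.5 h value lay below all of them.

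Cd68, the macrosialin gene, did not stand with the other 3. From 0 to 21 h its 1 probe read -0.16, -0.27, -0.31, -0.21 and -0.09. All 5 values were below the median gene, at ranks between 5816th and 7404th, and the mean over the 4 arrays was -0.19 ± 0.09. Read as base 10, its macrophage-to-embryo ratio was 0.638 times that of the median gene, or 1.57 times with the direction turned. A value below 0 on all 5 arrays was found in 24% of all genes, so a reading of this sign is not rare on these arrays. In the likely direction it goes against the name of a macrophage marker. On the same arrays the median of the 400 probes with neighbouring numbers was -0.06, -0.26, -0.05, -0.05 and -0.06. Cd68 lay close to that median at 0.5 h and 21 h. The part of this stretch in its values was not tested.

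**Figure D1:**
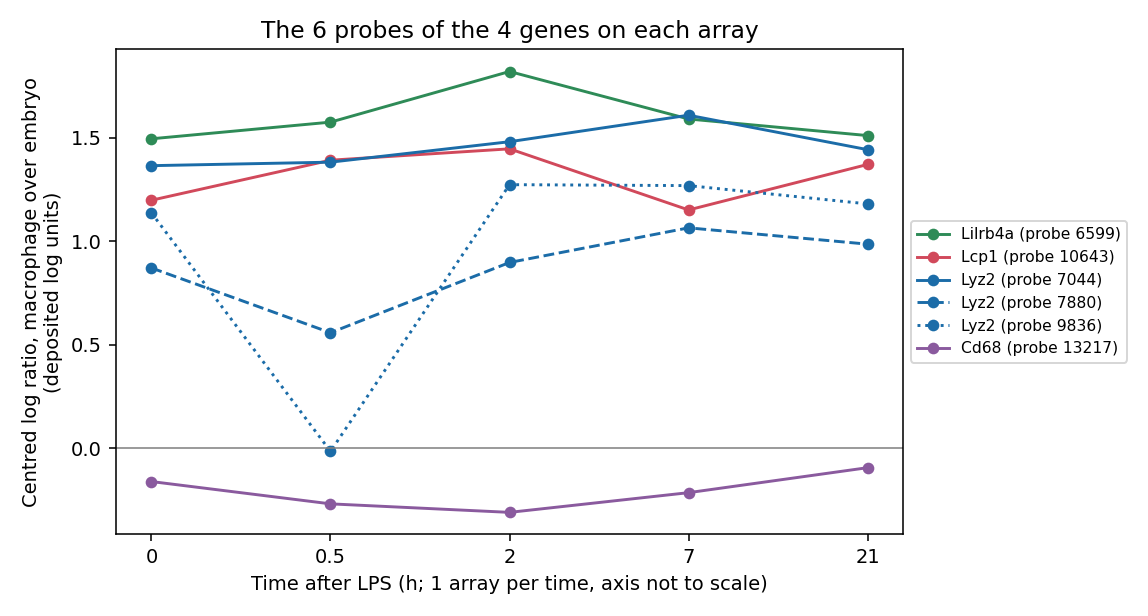
Centred log ratio (deposited log units, macrophage over embryo) of each of the 6 probes against the time of the array, 1 array per time. Lilrb4a, Lcp1 and the Lyz2 probe number 7044 stayed above 1.1 on all 5 arrays, the Lyz2 probe number 9836 read -0.02 at 0.5 h alone, and Cd68 stayed below 0.

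The 3 higher genes passed the 2-fold line on all of the 0, 2, 7 and 21 h arrays, as did 3.38% of all genes, and Cd68 did not. On all 5 arrays the share over all genes was 2.32%, and the same 3 genes passed on the gene means. Nothing is read from these counts, since the genes were chosen on this measure. The arrays differed in how far ratios spread: from 0 to 21 h the SD across genes was 0.27, 0.54, 0.36, 0.30 and 0.27. With that wide spread at 0.5 h, a Lilrb4a ratio slightly above its 0 h value came with a much lower rank.

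**Figure D2:**
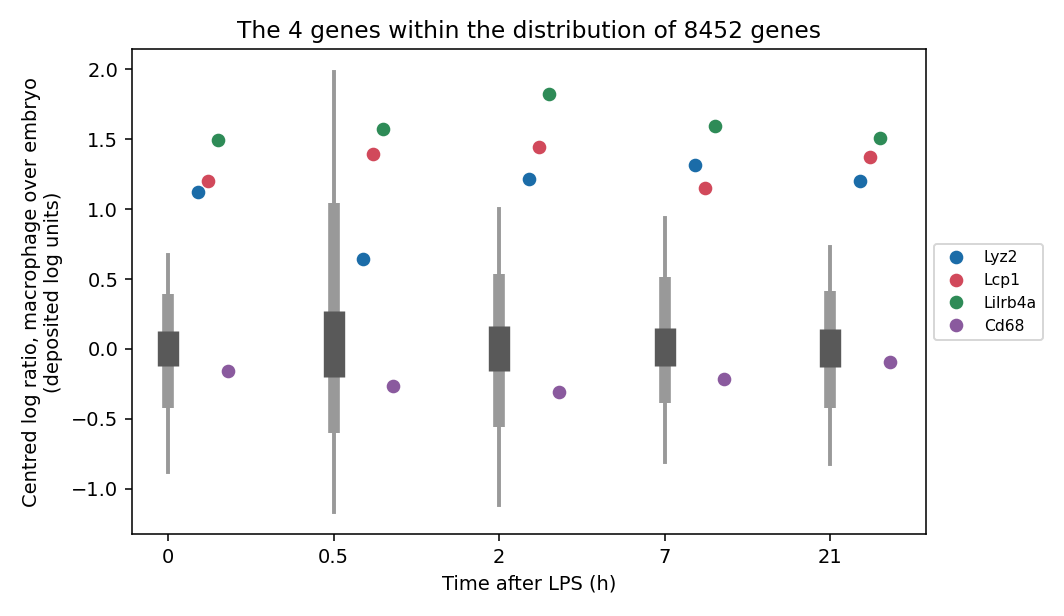
The 4 genes (points) on each array beside the distribution of centred log ratios of 8452 genes, drawn as the 25th to the 75th percentile (dark bar), the 5th to 95th percentile (grey bar) and the 1st to 99th percentile (thin line). Lilrb4a, Lcp1 and Lyz2 lie above the 99th percentile at 0, 2, 7 and 21 h and below it at 0.5 h, where the distribution is widest, and Cd68 lies below 0 throughout.

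On the 0, 2, 7 and 21 h arrays the 3 Lyz2 probes differed in ratio, but less in difference from 0 h. Probe number 7044 averaged 1.48, number 9836 averaged 1.22 and number 7880 averaged 0.96 over these 4 arrays. The order of the 3 probes was the same on each of them. Their course differed in part: probes 7044 and 7880 were highest at 7 h, while probe 9836 read 1.27 at both 2 h and 7 h. At 0 h the SD over the probes was 0.25, where the median over 1142 genes with at least 3 probes was 0.16, and 75.9% of those genes had an SD as small or smaller. For the difference from 0 h the probes lay closer: for 2, 7 and 21 h the SD over the 3 probes was 0.06, 0.06 and 0.04, against medians of 0.11, 0.11 and 0.14 over the same genes.

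At 0.5 h the Lyz2 probes parted. The difference from 0 h was 0.02 for probe 7044, -0.31 for probe 7880 and -1.15 for probe 9836, an SD of 0.60 where the median over the 1142 genes was 0.27. The stretches of neighbouring probe numbers differed too, although the numbers are not known to follow positions on the array. Among the 400 probes with neighbouring numbers, the correlation of the 0.5 h with the 0 h array was 0.73 around probe 7044, 0.13 around probe 7880 and 0.27 around probe 9836. Around the single probes of Lilrb4a, Lcp1 and Cd68 it was 0.78, 0.71 and 0.82, and the differences of these 3 genes at 0.5 h, as centred, were under 2-fold; under 3 other scalings, given with the differences, Lilrb4a and Lcp1 were past 2-fold lower, and with a running median over probe numbers removed Lcp1 was past it upwards (0.31). Over 389 windows along the probe numbers this correlation ranged from -0.12 to 0.90, with a median of 0.53, and 32.4% of windows reached 0.7. The part of these stretches in the Lyz2 value at 0.5 h was not tested.

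**Figure D3:**
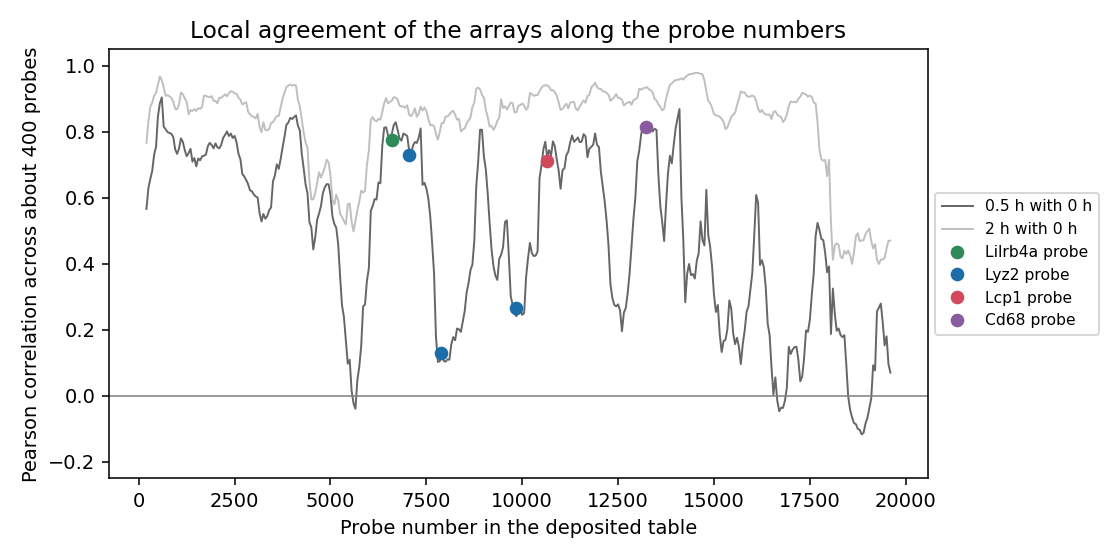
Pearson correlation with the 0 h array across about 400 probes of neighbouring number, against probe number. The dark line is the 0.5 h array and the light line the 2 h array, with the 6 probes marked at their 0.5 h value. The Lilrb4a, Lcp1 and Cd68 probes and 1 Lyz2 probe lie where the 0.5 h correlation is above 0.7, and the other 2 Lyz2 probes lie at 0.13 and 0.27.

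The comparison of each LPS time with 0 h asked whether the identity genes moved after LPS. The only unexposed array was that of 0 h, so LPS, time in culture and the single array of each time cannot be told apart. At 0.5 h 1 of the 4 genes was past the 2-fold size rule, beside 30.5% of all genes, and at 2 h 1 of 4, beside 6.81%. At 7 h 0 of 4 were past it, beside 4.74%, and at 21 h 0 of 4, beside 9.02%. From 0.5 to 21 h the median difference of the 4 genes was -0.01, 0.17, 0.02 and 0.07, where the median of all genes was -0.01, -0.01, 0.02 and 0.00. The 4 differences share the 0 h array, and a value of that array that lay off would move all of them.

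At 0.5 h Lyz2 read 0.64 in LPS-exposed cells against 1.13 in unexposed cells, a difference of -0.48 ± 0.60 (SD over 3 probes). The spread over probes was wider than the difference. Without probe 9836, a choice made after the values were seen, it was -0.15 ± 0.23 over the other 2 probes and no longer past the size rule. The share of all genes lower by 2-fold at 0.5 h was 10.6%. The remaining differences at 0.5 h were 0.19 for Lcp1, 0.08 for Lilrb4a and -0.11 for Cd68. These values depended on the scaling of the wide 0.5 h array. After quantile normalization, after scaling to a shared median absolute deviation and after removal of a loess trend, Lyz2 was at -1.36, -0.95 and -1.57. Under the same 3 settings Lcp1 was at -1.16, -0.54 and -1.20 and Lilrb4a at -1.41, -0.78 and -1.72, all past 2-fold in the other direction.

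At 2 h Lilrb4a read 1.82 in LPS-exposed cells against 1.496 in unexposed cells, a difference of 0.33 on 1 probe, just past the size rule of 0.30 and at percentile 96.4 of all genes. This call turned with the scaling of the arrays: the difference was -0.55 after quantile normalization, -0.067 with every array scaled to the same median absolute deviation and -0.34 once a loess trend on the mean ratio had been taken out. In rank, Lilrb4a was 11th at 2 h and 1st at 0 h. Quantile normalization works on ranks, so it could give Lilrb4a no positive difference from 0 h at any time. The share of all genes higher by 2-fold at 2 h was 4.24%. The other differences at 2 h were 0.25 for Lcp1, 0.09 ± 0.06 for Lyz2 (SD over 3 probes) and -0.15 for Cd68. The Lcp1 and Lyz2 values also took a negative sign under the same 3 scalings, while Cd68 remained below 0 under each.

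At 7 h and 21 h no difference among the 4 genes reached 2-fold as centred. Lyz2 read 1.31 at 7 h against 1.13 at 0 h, a difference of 0.19 ± 0.06 with all 3 probes between 0.13 and 0.24, and it was at percentile 90.9 of all genes. After quantile normalization this difference was -0.30, in the other direction. At 21 h its difference was 0.08 ± 0.04, with all 3 probes between 0.04 and 0.12. Lcp1 differed by -0.05 at 7 h and by 0.17 at 21 h, Lilrb4a by 0.10 and 0.02, and Cd68 by -0.05 and 0.07. At 7 h quantile normalization also put Lcp1 at -0.63 and Lilrb4a at -0.54, both past 2-fold. The probes of Lyz2 thus shared a sign at 2, 7 and 21 h, but they were read on the same arrays and are not replicates of the culture.

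**Figure D4:**
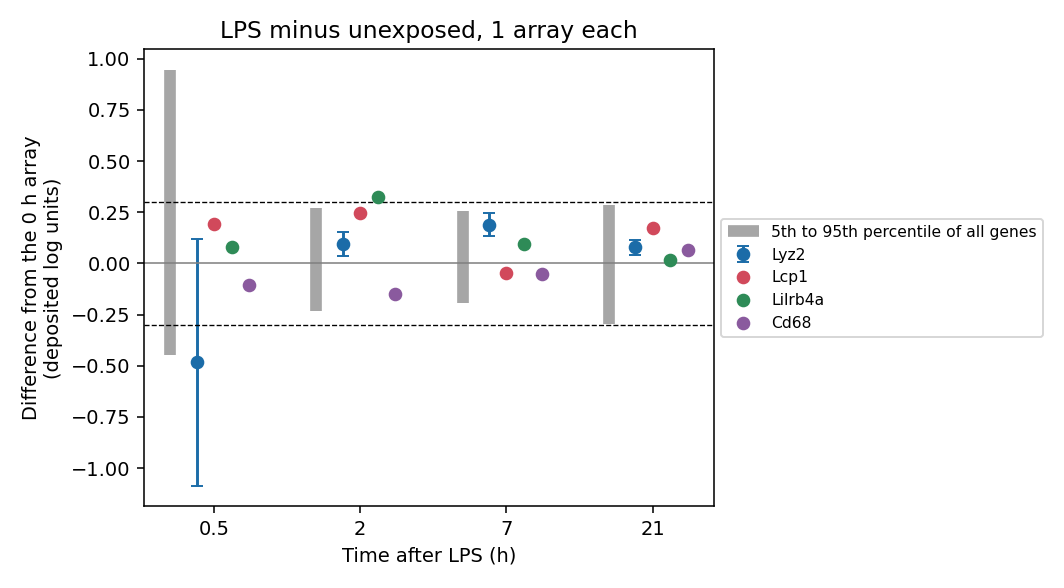
Difference of each LPS array from the 0 h array (deposited log units) for the 4 genes, with the SD over 3 probes as the error bar of Lyz2, the 5th to 95th percentile of 8452 genes in grey and the 2-fold size rule as dashed lines. Lyz2 at 0.5 h and Lilrb4a at 2 h lie past the dashed lines, the Lyz2 bar reaches across 0, and the Lilrb4a value was -0.55, -0.067 and -0.34 under 3 other scalings. The first of them, quantile normalization, could give Lilrb4a no positive value.

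Over the 0, 2, 7 and 21 h arrays the SD of a gene's ratio was 0.08 for Lyz2, 0.09 for Cd68, 0.14 for Lcp1 and 0.15 for Lilrb4a, where the median over all genes was 0.09. Lyz2 was thus at percentile 41.9 of this SD, Cd68 at 51.7, Lcp1 at 76.4 and Lilrb4a at 79.5, with a low percentile standing for a steady ratio. The order of the ratios was Lilrb4a, Lcp1, Lyz2 and Cd68 on the 0, 0.5, 2 and 21 h arrays. At 7 h Lyz2 (1.31) was above Lcp1 (1.15). The gap of Lyz2 below Lcp1 was 0.07 at 0 h, 0.23 at 2 h and 0.17 at 21 h, all within the SD over the Lyz2 probes on those arrays (0.25, 0.30 and 0.23). At 0.5 h the gap was 0.75, wider than the SD of 0.70, but it depended on Lyz2 probe 9836. Without that probe, a choice made after the values were seen, Lyz2 was at 0.97 at 0.5 h, against 1.39 for Lcp1. Lilrb4a stood above Lcp1 by 0.14 (21 h) to 0.44 (7 h), with 1 probe each and no error. The gap between Cd68 and the lowest of the other 3 was at least 0.91 on every array.

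Likeness to other genes was measured as the root mean square difference of the centred log ratio over the 0, 2, 7 and 21 h arrays. The genes nearest to Lyz2 were H2-Q8 (0.13), a class I histocompatibility gene, Lcp1 (0.17) and Laptm5 (0.19), a lysosomal membrane protein of blood cells. The nearest to Lcp1 were Ifi204 (0.12), an interferon-inducible gene, Laptm5 (0.13) and H2-Q8 (0.16). H2-Q8 belongs to a family of close copies, so its probe may read others of them. The measure rests mainly on how high a ratio is, and few genes are as high.

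The gene nearest to Lilrb4a was AW112010 (0.06), followed by Fcgr1 (0.26), the high-affinity receptor for IgG, and Lcp1 (0.33). From 0 to 21 h AW112010 read 1.48, 1.45, 1.85, 1.49 and 1.47 on 1 probe. Like Lilrb4a, it had its largest value at 2 h. This was not particular to the pair: Lcp1, H2-Q8, Laptm5 and Fcgr1 were also largest at 2 h, though Lyz2 was largest at 7 h. The 2 h array had the widest spread across genes (SD 0.36) apart from that of 0.5 h. With the 0.5 h array included AW112010 was again the nearest gene (0.08). It was the only gene within 0.1 of Lilrb4a, and none lay within 0.1 of Lyz2 or of Lcp1.

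Cd68 by contrast lay in a crowded range, with 636 genes within 0.1. The nearest were Aplnr (0.02), the apelin receptor, Prps1l3 (0.02) and Pdgfc (0.02), a growth factor of the PDGF family. With all 5 arrays Aplnr was again the nearest, and Sox11 and Crot took the places of the other 2. For Lyz2 all 3 nearest genes were others when the 0.5 h array was included, namely B2m (0.23), H2-D1 (0.26) and BC005537 (0.27).

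Among other genes of macrophage identity, 14 of 35 listed had a value on all 5 arrays, and 8 of these stood past 2-fold above embryo at 0, 2, 7 and 21 h, beside the 3.38% of all genes. They were Fcgr1 (mean 1.43), Laptm5 (1.17), Cd53 (0.84), a tetraspanin of leukocytes, Fcer1g (0.74), the signal chain of Fc receptors, Lpl (0.69), a lipase, Cd52 (0.65), Cyba (0.54), a subunit of the phagocyte oxidase, and Lgals3 (0.53), a galectin. Apoe (-0.48) and Tyrobp (-0.17), an adaptor of myeloid receptors, were the lowest. Cd68 was not alone below 0: Apoe, Tyrobp and Ctsb, a lysosomal protease, were also below 0 on all 5 arrays. These were 3 of the 14 genes, beside 24% of all genes, so nothing is read from the count. The macrophage markers Csf1r, Adgre1, Itgam and Cd14 were not analysed here. The lists were written with earlier results of these arrays known.

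Of 25 listed plastins and regulators of the leukocyte actin skeleton, 15 were measured, 10 of them past 2-fold above embryo on the 4 arrays (beside 3.38% of all genes), and the list median lay between 0.38 and 0.50 on the 5 arrays. Dock2 (mean 0.79), an activator of Rac in leukocytes, and Arhgdib (0.75) were the highest, both below Lcp1. Tmsb4x (0.62), which binds actin monomers, Arpc1b (0.59), a subunit of the Arp2/3 complex, Capg (0.56) and Actb (0.55), the cytoplasmic actin itself, came next. Also past 2-fold were Cotl1 and Rac2 (both 0.48), Lsp1 (0.43) and Coro1a (0.40). Vasp (-0.06) and Marcks (0.02) were the lowest. Against 0 h, 3 of the 15 were past the size rule at 0.5 h (beside 30.5% of all genes), all lower: Marcks (-0.61), Vasp (-0.53) and Tmsb4x (-0.43). At 2 h and 7 h 0 were past it (beside 6.81% and 4.74%), and at 21 h 2 were (beside 9.02%), Lsp1 (0.39) and Capg (0.36), both higher. These list counts are for the median-centred values alone.

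Of 27 listed relatives and signal partners of Lilrb4a, 8 were measured and 3 stood past 2-fold on the 4 arrays, beside 3.38% of all genes. These were Syk (mean 0.91), the kinase of activating receptors, Fcer1g (0.74), also in the macrophage list, and Ptpn6 (0.64), which encodes the phosphatase SHP-1 used by inhibitory receptors. Tyrobp (-0.17) and Inpp5d (-0.02), the lipid phosphatase SHIP-1, were the lowest. On the 0, 2, 7 and 21 h arrays Ptpn6 read 0.47, 0.74, 0.67 and 0.68, and 1.82 on the 0.5 h array.

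Relatives of Cd68 in the lysosome membrane were mixed. Of 21 listed 14 were measured, 5 of them past 2-fold on the 4 arrays, beside 3.38% of all genes: Laptm5 (1.17), Cd36 (0.69), a scavenger receptor, Scarb2 (0.55), Npc2 (0.52), a cholesterol carrier, and Lamp2 (0.48). Lamp2 and Lamp1 (0.14), the main glycoproteins of the lysosome membrane and relatives of Cd68, were both above Cd68 on each of the 5 arrays. Marco (-0.05) and Laptm4a (-0.03) were the lowest by mean. Of 8 listed lysozyme-family genes 4 were measured and 0 stood past 2-fold on the 4 arrays, a count from which nothing is read beside a share of 3.38%, with Lyzl6 at 0.16 and Lyzl4 at 0.08, while Lyg1 (-0.58), of the goose-type lysozymes, was the lowest.

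**Figure D5:**
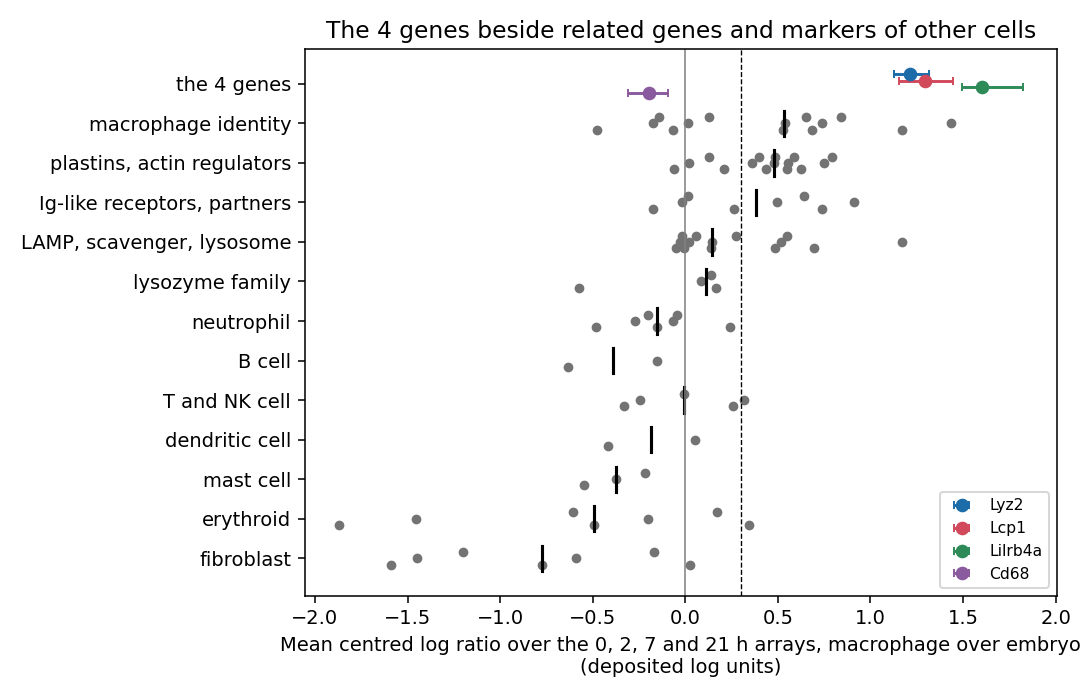
Mean centred log ratio over the 0, 2, 7 and 21 h arrays (deposited log units) of the 4 genes, with bars from the lowest to the highest array, and of the measured genes of 12 lists (grey points, black line at the list median); the dashed line is 2-fold above embryo. Lyz2, Lcp1 and Lilrb4a lie above every listed gene except Fcgr1, which only Lilrb4a exceeds, and Cd68 lies left of the macrophage, actin, receptor and lysosome list medians.

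Markers of other cells are given because neutrophils also make lysozyme and other leukocytes also make L-plastin. Beside a share of 3.38% over all genes, a count of 0 in lists as small as these says little. Of 7 measured neutrophil genes 0 were past 2-fold above embryo on the 4 arrays, the list median lay between -0.20 and -0.08 on the 5 arrays, and the highest were Elane (0.24) and Mpo (-0.05). The same count was 0 of 5 for T and NK cell genes, led by Gzma (0.31) and Cd3d (0.26), 0 of 2 for B cell genes (Ighm -0.15, Cd79b -0.63), 0 of 2 for dendritic cell genes (Ccr7 0.05, Fscn1 -0.42) and 0 of 3 for mast cell genes (Mcpt4 -0.22, Cpa3 -0.37). It was 0 of 7 for erythroid genes, led by Epor (0.34) and Slc4a1 (0.17), and 0 of 7 for fibroblast genes, led by Pdgfra (0.03) and Col3a1 (-0.17). Embryo RNA holds fetal blood cells and tissue macrophages of its own, so a ratio near 0 does not say that a transcript was missing from the macrophages. The part of other cells in the ratios of the 4 genes was not tested.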

How the data were processed

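The authors deposited 1 value per probe and array, a ratio of the 2 channels on a log scale that was read here as log10. The base, scanner, background correction and normalization are stated by neither labels nor table. Per the labels, labelling was indirect, through amino-allyl groups and Cy3. Among 19828 probes, the platform annotation gave 1 gene symbol to 14759, several to 170 and none here to 4899. Current symbols came, for 14628 probes, from the Entrez identifier and a RefSeq table of GRCm38.p6. Each gene took the mean of its probes, and the median over 8452 genes was subtracted from each array. With 1 array per time no test was run, and that number limits the precision. A 2-fold size rule (0.30) was used, and the SD over probes holds no spread between cultures. The genes, lists and alternatives were chosen with earlier results of these data known. Named genes were the 4 members, the 3 nearest genes to each, listed genes past 2-fold above embryo on 4 arrays with the 2 lowest of each list, paralogs, and the 2 highest of other cells' markers. Ctsb, the Lyzl genes, the genes nearest over all 5 arrays and Ptpn6 at single times were named after their values were seen. Alternatives were other centrings and scalings, probe choices, baselines, log bases and size rules. The steps were tested on simulated data, with planted shifts larger than the size rule and equal noise on every array. The wide spread of the 0.5 h array was not simulated. Python 3.11.15, numpy 2.4.6, pandas 2.3.3, statsmodels 0.14.6 and matplotlib 3.10.9 were used.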

Additional observations from a re-analysis of the deposited data

How the results depend on the processing

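The mean ratios to embryo had the same sign under all 10 alternatives for each of the 4 genes, and Cd68 ranged from -0.23 to -0.14. Some alternatives could hardly turn a sign. For Lcp1, Lilrb4a and Cd68, with 1 probe each, the probe choices changed only the array median. Scaling to a shared median absolute deviation could not turn a sign, because each gene had 1 sign on all 4 arrays. Quantile normalization, which brings in the wide 0.5 h array, moved Lyz2 to 1.57, Lcp1 to 1.67 and Lilrb4a to 2.00, beyond the SD over probes (0.24 pooled, 0.26 for Lyz2). Quantile normalization could give Lilrb4a no positive difference from 0 h, because Lilrb4a ranked 1st at 0 h. The Lilrb4a difference at 2 h was reversed by quantile normalization (-0.55), by scaling to the same median absolute deviation (-0.067) and by removal of the loess trend (-0.34). At 0.5 h, 3 of 4 genes were past the size rule, all lower, under each of these scalings, 2 with a running median over probe numbers removed or at 1.5-fold, and 0 with the Lyz2 probe of highest or of lowest ratio, with base 2, or without the Lyz2 probe that fell most (chosen after seeing the data). At 2 h, 3 passed after quantile normalization and 2 after the loess step, all lower, 2 at 1.5-fold, and 0 with scaling to the same deviation, the median of the other 4 arrays as baseline, base 2 or 3-fold. At 7 h, 3 passed after quantile normalization, all lower, and 1 at 1.5-fold. At 21 h 0 passed under all 14 alternatives. At 1.5-fold the share of all genes past the rule, from 0.5 to 21 h, was 48.4%, 18.5%, 16.7% and 23.5%. Read as base 2 it was 5.13%, 0.308%, 0.201% and 0.13%, and at 3-fold 18.1%, 2.37%, 1.68% and 2.78%. The share was not counted under the other alternatives. Nothing is read from any of these counts of 4 genes. Where not shown by the alternative itself, the cause was not tested. No paired analysis was possible because each time had 1 array, and no array could be left out within a group. Signal over background is unknown.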
